A study of Mus musculus with 4 samples.

Results

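Caveolin 1 (Cav1), fatty acid-binding protein 4 (Fabp4) and adiponectin (Adipoq) were followed in heart ventricles of mice given deoxycorticosterone acetate (DOCA) with and without a salt load. All clones whose single platform gene symbol is one of these 3 were taken, which gave 4 of 16471 clones and 3 of 8106 named genes. Cav1 had 2 clones, and Fabp4 and Adipoq had 1 clone each. The 3 genes were chosen from earlier results of the same high-salt against low-salt contrast, on the same log ratios, so their values are given as a description, with no test.

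High-salt mice had 1 kidney removed and drank 1% NaCl for 5 weeks, and low-salt mice had 1 kidney removed and drank tap water. Both groups received DOCA, a mineralocorticoid steroid, for 5 weeks and ate food with 0.5 mg Na per g, so no mouse without DOCA or without surgery stands in the comparison. All 6 mice were males of 12-13 weeks of a wild-type backcross between 129Ola and C57BL/6J with the strain label 1-renin. The tissue was right and left ventricles with the septum. High-salt hearts weighed 131, 128 and 120 mg in pairs 1 to 3, against 109, 107 and 108 mg in the low-salt hearts. The cardiac weight index was 4.89, 4.89 and 4.71 mg/g in high-salt mice, against 4.07, 4.05 and 4.01 mg/g in low-salt mice.

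Each of 4 printed cDNA arrays set the RNA of 1 high-salt mouse against that of 1 low-salt mouse. The high-salt RNA was labelled with Cy3 for arrays 1 and 2 and with Cy5 for arrays 3 and 4. Array 1 held pair 1, array 3 held pair 3, and arrays 2 and 4 held pair 2 with the dyes exchanged. The mean of arrays 2 and 4 stands for pair 2, so that n = 3 pairs. A value is the deposited log ratio, taken as log2 and read as high over low salt, as the array titles word it. This direction is not settled, because no source used here says whether the arrays with exchanged dyes had been turned. Across the 16471 clones, which are no replicates of each other, r was 0.57 between the arrays with Cy3 on high salt and 0.43 between those with Cy5 on it. Arrays of opposite orientation correlated between -0.37 and -0.073, and the -0.073 belonged to the 2 arrays of pair 2. For 31.3% of all genes the sign was opposite between the 2 arrays with Cy3 on high salt and the 2 with Cy5 on it. Signs and the order of arrays are given in this direction throughout. With arrays 1 and 2 turned in sign, the mean log2 ratio was 0.27 for Cav1, 0.061 for Fabp4 and 0.22 for Adipoq. A ratio gives no level, so neither the abundance of a transcript nor the labelled tissue could be checked from these values.

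Caveolin 1 is the scaffold protein of caveolae, small pits of the cell surface that are dense in endothelial cells and adipocytes. There it holds cholesterol-rich membrane and binds signalling proteins, among them endothelial nitric oxide synthase. Fabp4 carries fatty acids inside adipocytes, macrophages and the endothelium of capillaries, including those of the heart. Adiponectin is a hormone secreted by fat cells, and T-cadherin on vascular and muscle cells binds it. RNA from whole ventricles mixes these cells with cardiomyocytes, so a larger number of cells of 1 type and more RNA per cell cannot be told apart.

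The promoters of Cav1 and Adipoq are shown to give the start regions of 2 members, and come from RefSeq (GRCm38.p6). The 250 bases before each start are printed 5′ to 3′ on the + strand, which is the strand of both genes. Capitals mark short motifs found by exact match on either strand. The motifs searched were the steroid receptor half-site AGAACA, the half-site of PPAR and RXR receptors AGGTCA, the CCAAT box, the GC box GGGCGG and the core promoter element TATAAA. No motif overlapped another in these windows.

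Cav1, first start, chr6:17306085-17306334: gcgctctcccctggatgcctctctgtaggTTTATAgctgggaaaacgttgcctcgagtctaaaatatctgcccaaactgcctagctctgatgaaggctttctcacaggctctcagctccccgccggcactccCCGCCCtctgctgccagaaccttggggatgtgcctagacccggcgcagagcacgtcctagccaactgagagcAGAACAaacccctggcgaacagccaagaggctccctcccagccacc
Cav1, second start, chr6:17307390-17307639: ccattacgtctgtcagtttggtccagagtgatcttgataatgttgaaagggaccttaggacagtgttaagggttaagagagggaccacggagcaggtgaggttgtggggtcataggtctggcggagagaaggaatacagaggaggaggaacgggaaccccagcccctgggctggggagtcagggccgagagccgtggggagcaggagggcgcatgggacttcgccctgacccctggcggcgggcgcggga
Adipoq, chr16:23146286-23146535: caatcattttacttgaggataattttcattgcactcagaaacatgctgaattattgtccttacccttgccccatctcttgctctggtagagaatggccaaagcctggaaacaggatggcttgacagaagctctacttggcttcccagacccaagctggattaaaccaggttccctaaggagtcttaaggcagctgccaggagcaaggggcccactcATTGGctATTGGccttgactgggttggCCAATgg

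The first Cav1 window held 1 steroid receptor half-site, which begins 46 bases before the start, 1 GC box on the other strand and 1 TATAAA match on the other strand. The second Cav1 window held no match to these letters. The Adipoq window held 3 CCAAT boxes, which begin 34, 27 and 7 bases before the start. Of 32851 windows of the same length, 16.1% held the steroid receptor half-site, 32.7% the GC box, 12.4% TATAAA, 14.0% the PPAR and RXR half-site and 33.8% the CCAAT box. The GC content was 59.6% and 60.8% in the Cav1 windows and 48.8% in the Adipoq window. These matches are descriptions of letters, and binding was not measured.

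Cav1 had the highest mean of the 3 genes, with pair 1 near 0 and pairs 2 and 3 above it. Its first clone had log2 ratios of -0.055, 0.49, 1.05 and 0.42 on arrays 1 to 4. This clone was near 0 in pair 1 and well above 0 on the other 3 arrays. Its second clone had log2 ratios of 0.10, 0.49, 0.55 and 0.65. The second clone was above 0 on all 4 arrays, and again array 1 was the lowest.

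Averaged over arrays 2 and 4 for pair 2, the first Cav1 clone stood at -0.055, 0.46 and 1.05 in pairs 1 to 3. These pairs averaged 0.48 ± 0.55 log2 units (SD, n = 3 pairs). The second clone stood at 0.10, 0.57 and 0.55, with a mean of 0.40 ± 0.26 (SD, n = 3 pairs). The 2 clones differed by 0.081 in their means, against a median gap of 0.094 over the 1870 genes with 2 clones. On array 3 the first clone was the higher, and on array 4 the second.

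For the gene, the mean of both clones gave 0.023, 0.51 and 0.80 in pairs 1 to 3. The mean log2 ratio of Cav1 was 0.44 ± 0.39 (SD, n = 3 pairs), or a 1.36-fold higher level in high salt on the assumed base. Its SD was larger than that of 85.2% of all genes. Without pair 1 the Cav1 mean was 0.66, and without pair 3 it was 0.27. With arrays 1 and 2 turned in sign, the mean was 0.27 ± 0.46. Pair 1 then stayed near 0 and arrays 2 and 4 of pair 2 nearly cancelled, so that mean rested mostly on pair 3.

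Placed among all clones of the same array, the first Cav1 clone lay at the 30.1st percentile on array 1, the 90.9th on array 2, the 99.8th on array 3 and the 95.6th on array 4. The second clone lay at the 72.1st, 90.8th, 97.7th and 97.9th percentiles in the same order. On arrays 2 to 4 both clones thus lay among the high clones, and on array 1 the first did not. The second Cav1 clone and the Fabp4 clone were at neighbouring places of print block 31, at positions 549 and 550. The first Cav1 clone was in block 23 and the Adipoq clone in block 13.

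Fabp4 had the smallest spread of the 3 genes. Its log2 ratios were 0.41, 0.11, 0.42 and 0.46 on arrays 1 to 4, all above 0, and array 2 was the lowest. In pairs 1 to 3 it stood at 0.41, 0.28 and 0.42. The mean log2 ratio of Fabp4 was 0.37 ± 0.075 (SD, n = 3 pairs), 1.29-fold. Its SD was larger than that of 23.5% of all genes, so the 3 pairs lay closer together than for most genes.

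The 2 arrays of pair 2 gave Fabp4 values of 0.46 with Cy5 on high salt and 0.11 with Cy3 on it, a gap larger than the spread between the 3 pairs. With pair 2 taken from array 4 alone the mean was 0.43 ± 0.028, and from array 2 alone it was 0.31 ± 0.18. Among all clones, Fabp4 lay at the 88.7th, 69.0th, 95th and 96.2nd percentiles on arrays 1 to 4. If arrays 1 and 2 are turned in sign, the Fabp4 pair values no longer share a sign, and the mean log2 ratio becomes 0.061 ± 0.43.

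Adipoq rested on 1 array. Its log2 ratios were 0.040, 0.15, 0.83 and -0.094 on arrays 1 to 4. Array 3 was high and the other 3 arrays were near 0, on both sides of it. The pair values were 0.040, 0.029 and 0.83, with a mean of 0.30 ± 0.46 (SD, n = 3 pairs), 1.23-fold. Without pair 3 the mean was 0.034. Adipoq lay at the 99.4th percentile of all clones on array 3 and at the 60.2nd, 74.2nd and 28.5th on arrays 1, 2 and 4.

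**Figure D1:**
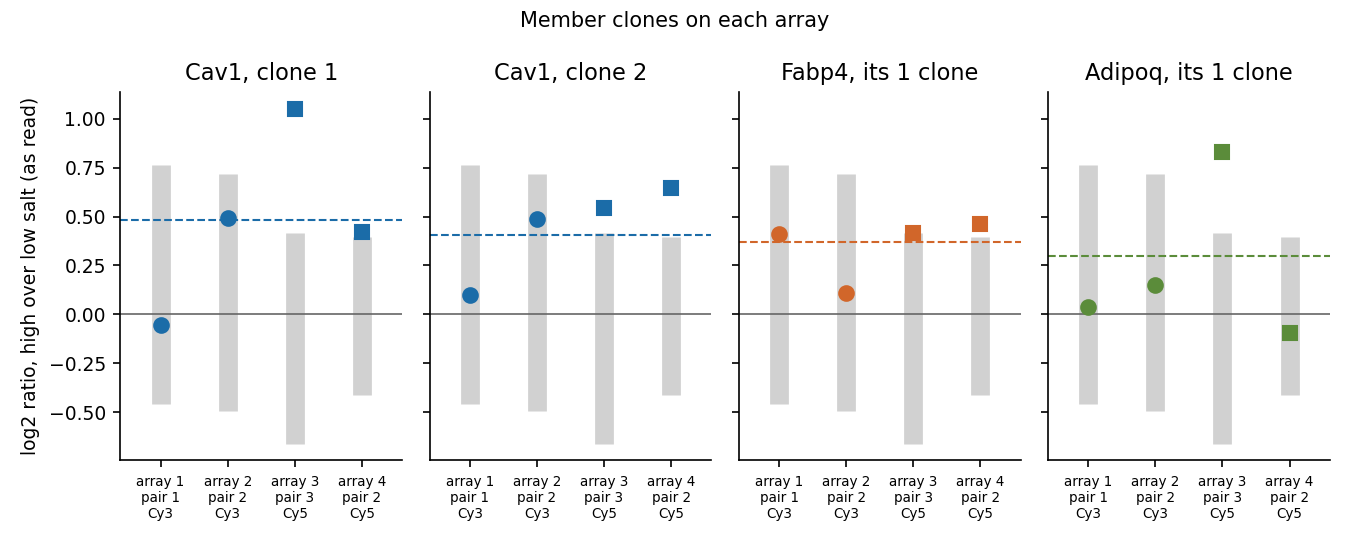
Log2 ratio of each of the 4 clones (vertical axis, high over low salt as read) on arrays 1 to 4, with circles for Cy3 and squares for Cy5 on high salt. Grey bars span the 5th to 95th percentile of 16471 clones on that array, and the dashed line is the mean over 3 pairs. Array 1 is low for both Cav1 clones, Fabp4 is above 0 on all arrays, and Adipoq stands out on array 3 at 0.83.

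Of the 4 clones, 2 lay above 0 on all 4 arrays, the second Cav1 clone and the Fabp4 clone, where 6.65% of all clones did so. At the gene level Cav1 and Fabp4 did, where 7.01% of all genes did. The Cav1 gene value on array 1, 0.023, averaged 1 clone below 0 and 1 above it. These counts use the contrast by which the genes were chosen, and nothing is read from them. In limma's fit across all genes, 0 of 8106 genes (0%) passed an adjusted p of 0.05, the members included, and 441 genes had an unadjusted p under 0.05. The same test called 0 of 16471 clones (0%), with 858 at an unadjusted p under 0.05. Among so many genes and clones, many pass an unadjusted 0.05 even when none differ. The unadjusted counts are therefore not read as numbers of changed genes.

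The exchange of dyes within pair 2 bears on how each clone was measured, since both arrays hold the same 2 mice. The value of array 4 minus array 2, times 0.5, was -0.035 and 0.080 for the Cav1 clones. It was 0.18 for Fabp4 and -0.12 for Adipoq. The median size of this value over all clones was 0.099. As read, the difference was below the median for both Cav1 clones and above it for Fabp4 and Adipoq, and Adipoq had opposite signs on arrays 2 and 4. This rests on the direction: with array 2 turned, both Cav1 clones and Fabp4 have opposite signs on these arrays, and Adipoq has 1 sign.

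**Figure D2:**
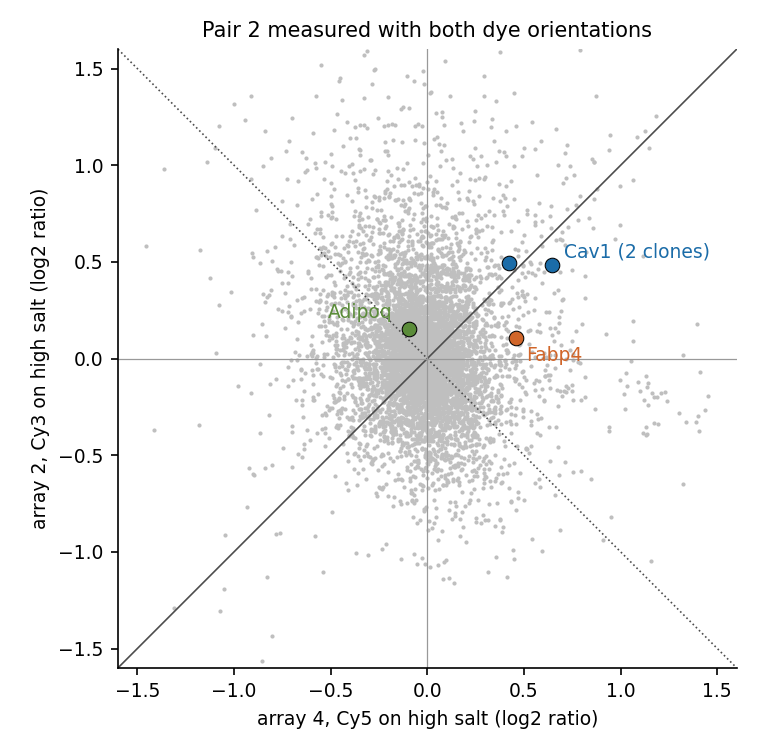
Log2 ratios of pair 2 on array 4 (horizontal, Cy5 on high salt) and array 2 (vertical, Cy3 on high salt), with grey points for 8064 genes and coloured points for the member clones; 42 genes lie outside the axes. As read, the Cav1 clones lie near the solid line of equal values and Adipoq near the dotted line of opposite values, and with array 2 turned these places are exchanged.

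The genes that build caveolae with Cav1 lay on both sides of 0. Of 12 listed caveolar genes 7 were measured, 4 with a mean above 0 and 3 below, where 49.8% of all genes had a mean above 0. The median of the list was 0.087, and 0.023 without Cav1, against -0.00026 over all genes. No gene of the list passed the adjusted threshold. Without pair 1, 2 of the 7 lay above 0, without pair 3, 6 did, and with arrays 1 and 2 turned 1 did. The share over all genes is not given for these settings, so nothing is read from these counts.

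Cav2, which forms mixed oligomers with caveolin 1, had log2 ratios of 0.13, 0.12, 0.15 and -0.15 on arrays 1 to 4. Its mean was 0.087 ± 0.093 (SD, n = 3 pairs). Cav3, the caveolin of muscle cells, stood at 0.23, 0.11, -0.48 and -0.18, with a mean of -0.097 ± 0.36. Cavin1, the coat protein needed to form caveolae, stood at 1.59, 1.04, -0.95 and -0.63, with a mean of 0.28 ± 1.27. As read, the sign of Cav3 and Cavin1 followed the dye on the high-salt RNA, as it did for 4 of the 7 caveolar genes and 31.3% of all genes. Neither Cav1 clone did this as read. With arrays 1 and 2 turned, Cav3 and Cavin1 were below 0 on every array, with means of -0.28 ± 0.18 and -1.13 ± 0.41. The sign of the second Cav1 clone then followed the dye, so this contrast rests on the direction.

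Cav1's other partner measured here was Nos3, endothelial nitric oxide synthase, which caveolin 1 holds inactive at the membrane. It stood at 0.16, 0.13, -0.46 and 0.038 on arrays 1 to 4, a mean of -0.072 ± 0.34 (SD, n = 3 pairs), and was named for this known binding after its values were seen. On array 3, where Cav1 was highest, Nos3 was lowest.

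Fabp4 had the highest mean among the measured members of its own family. Of 15 listed genes of fatty acid and retinoid carriers 5 were measured, and only Fabp4 had a mean above 0, where 49.8% of all genes did. Fabp3, the fatty acid-binding protein of cardiomyocytes, had log2 ratios of -0.19, 0.053, -0.036 and 0.063 and a mean of -0.055 ± 0.12 (SD, n = 3 pairs). Fabp1, Fabp2 and Fabp7, the forms of liver, intestine and brain, had means of -0.10, -0.044 and -0.069, and were named after their values were seen. With arrays 1 and 2 turned, the mean was 0.061 for Fabp4 and 0.052 for Fabp3. Fabp4 was chosen with this contrast known, and its difference from these genes was not tested.

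Genes that move fatty acids from blood across capillaries lay on both sides of 0. Of 22 listed 11 were measured, 5 with a mean above 0 and 6 below, with a median of -0.018 and of -0.021 without Fabp4. Cd36, a fatty acid receptor of endothelium and muscle, stood at -0.29, -0.24, -0.0040 and -0.37 on arrays 1 to 4. Its mean was -0.20 ± 0.17 (SD, n = 3 pairs), below 0 on every array as read. With arrays 1 and 2 turned it was 0.074, on the same side of 0 as Fabp4. Lpl, the lipase that frees fatty acids from lipoproteins, stood at -0.38, -0.076, -0.27 and -0.0078, with a mean of -0.23 ± 0.17, and of 0.046 with those arrays turned. Its 2 clones did not go together: the first stood at -0.11, 0.22, -0.58 and -0.087, and the second at -0.65, -0.37, 0.031 and 0.072.

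Gpihbp1 holds Lpl at the capillary wall, and Pparg is the receptor that drives Fabp4 and Adipoq in fat cells. Gpihbp1 stood at 1.41, 0.69, 0.0083 and -0.017, high with Cy3 on high salt and near 0 with Cy5 on it, for a mean of 0.58 ± 0.73 (SD, n = 3 pairs). Pparg stood at -0.12, -0.028, 0.35 and 0.19, for a mean of 0.11 ± 0.24, with the opposite dependence on the dye. The sign turned with the dye in the average of its 2 clones, and in neither clone alone. The first clone stood at -0.20, 0.057, 0.31 and 0.39, and the second at -0.034, -0.11, 0.39 and -0.0080. With arrays 1 and 2 turned, the means were -0.58 for Gpihbp1 and 0.19 for Pparg. Both were named for these roles after their values were seen. No gene of the list passed the adjusted threshold.

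**Figure D3:**
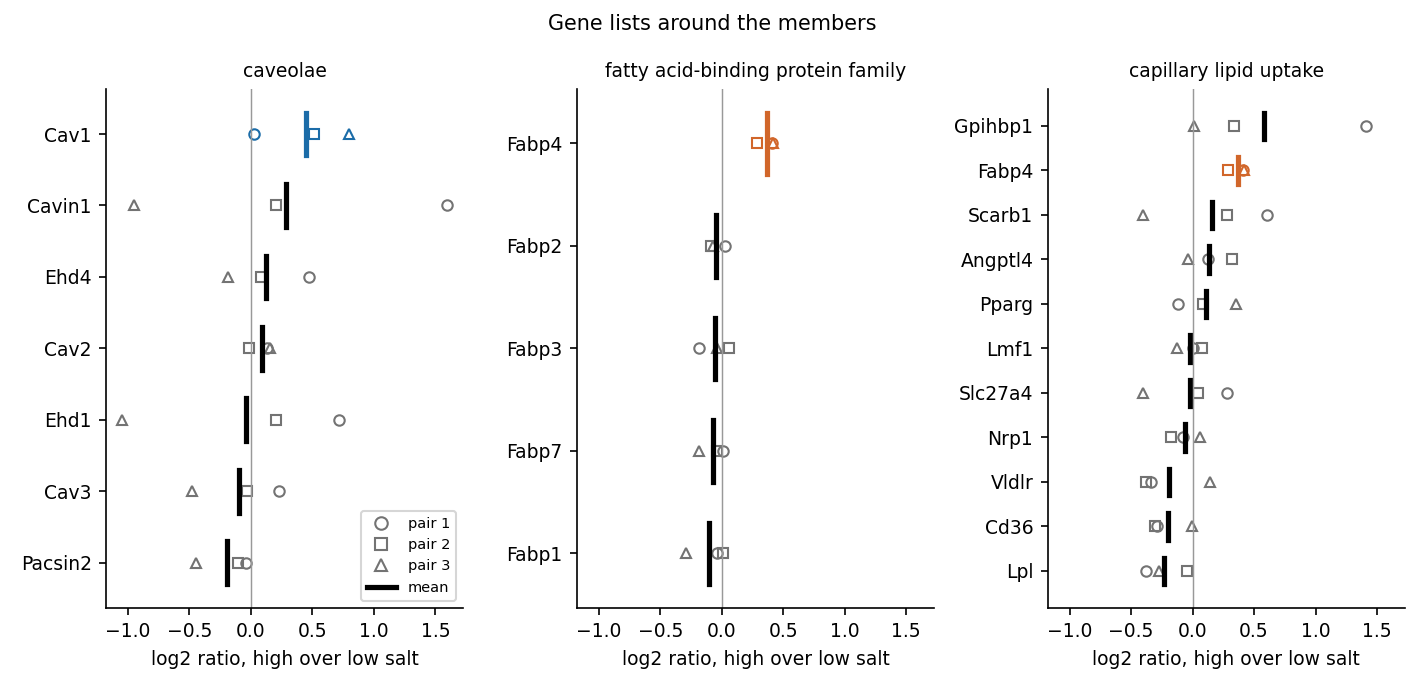
Log2 ratios (horizontal, high over low salt as read) of the measured genes of 3 lists, with an open symbol for each animal pair and a bar for the mean. Cav1 and Fabp4 are coloured, the 3 pairs of Fabp4 lie together between 0.28 and 0.42, and those of Cavin1 spread from -0.95 to 1.59.

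Adiponectin's receptors and the kinases downstream of them lay on both sides of 0. Of 19 listed genes 15 were measured, 8 with a mean above 0 and 7 below, with a median of 0.014 and of 0.0059 without Adipoq. Cdh13, the T-cadherin that retains adiponectin on vessels and muscle, stood at -0.0021, 0.16, -0.037 and 0.0029 on arrays 1 to 4. Adipor1 and Adipor2, the signalling receptors, had means of 0.060 ± 0.24 and 0.077 ± 0.65 (SD, n = 3 pairs), and the 3 Adipor1 clones had means of 0.086, 0.14 and -0.041.

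Prkab1 encodes a β subunit of AMP-activated kinase, an energy sensor that adiponectin activates. It stood at -0.42, -0.27, -0.46 and -0.46 on arrays 1 to 4, below 0 on every array, with a mean of -0.42 ± 0.046 (SD, n = 3 pairs). Its 2 clones had means of -0.31 and -0.53. The other subunits of this kinase measured in the list lay on both sides of 0. Prkab2, Prkaa1, Prkag1 and Prkag2 had means of -0.17, 0.025, 0.064 and 0.047, and were named after their values were seen. Stk11, the kinase that switches AMP-activated kinase on, stood at -0.12, -0.19, -0.21 and -0.021, with a mean of -0.15 ± 0.057. With arrays 1 and 2 turned the mean of Prkab1 was -0.044 and that of Stk11 -0.0022. No gene of the list passed the adjusted threshold.

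Fabp4 and Adipoq both mark adipocytes, and a ventricle sample can carry fat from its surface. Of 31 listed adipocyte markers 20 were measured, 7 with a mean above 0 and 13 below, with a median of -0.060 and of -0.064 without Fabp4 and Adipoq. On arrays 1 to 4 the medians were 0.025, 0.029, -0.11 and -0.17, and 11, 11, 8 and 4 of the 20 lay above 0. Without pair 3, 9 of the 20 had a mean above 0. The sign followed the dye for 8 of the 20, where it did so for 31.3% of all genes.

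On array 3, where Adipoq stood at 0.83, Pck1, an enzyme that makes the glycerol backbone of stored fat, stood at 0.70. Ucp1, the uncoupling protein of brown fat, stood at 2.59 there, against -0.095, 0.42 and 0.047 on arrays 1, 2 and 4. Ucp1, Plin1 and Lipe were named after their values were seen. On the same array 8 of the 20 markers lay above 0, Pparg at 0.35 among them. Plin1, the coat protein of fat droplets, stood at -0.13 and was below 0 on all 4 arrays. Lep, the hormone leptin, stood at -0.19 and Lipe, a lipase of stored fat, at -0.50, and the sign of both followed the dye. That of Pparg did so in the average of its 2 clones, and in neither clone alone. Fabp4 was at 0.42 on array 3 and as high on arrays 1 and 4. The part of fat tissue in the Adipoq and Fabp4 values was not tested.

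**Figure D4:**
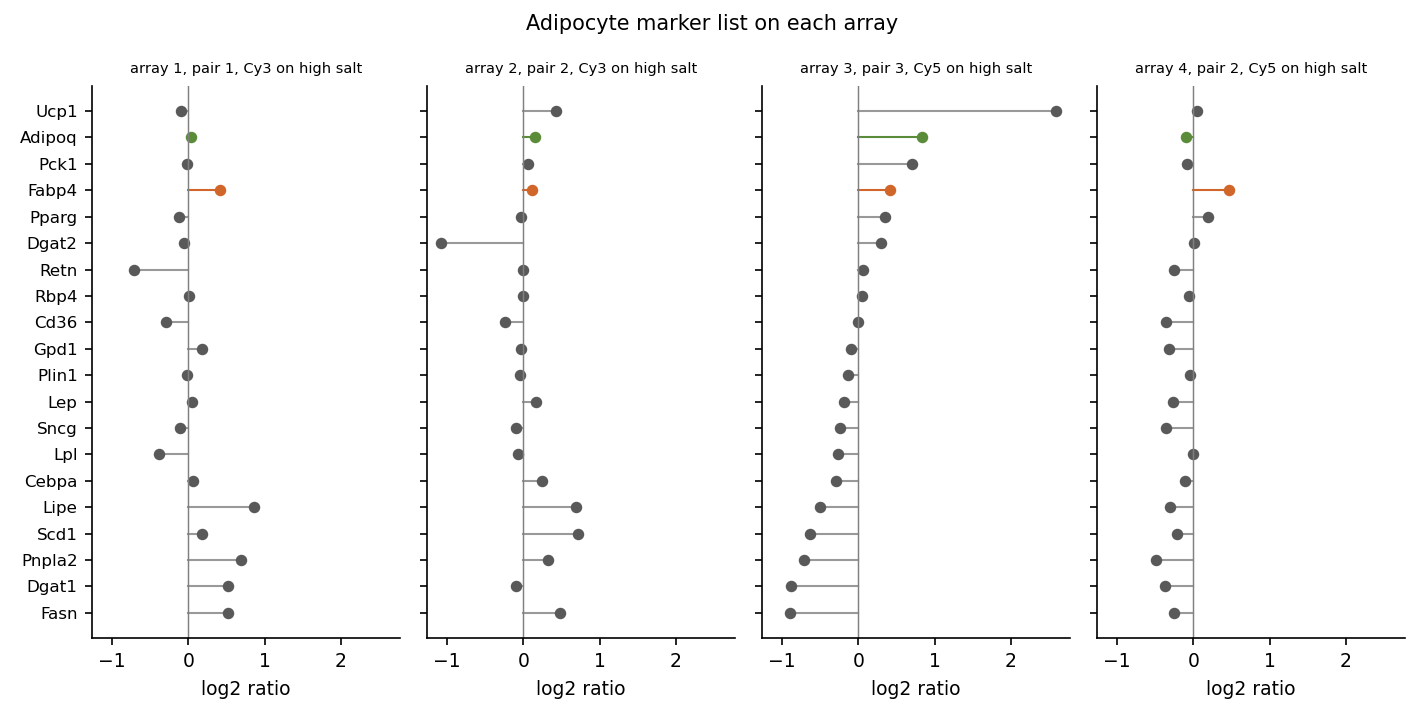
Log2 ratios (horizontal, high over low salt as read) of the 20 measured adipocyte markers on each array, sorted by array 3. Ucp1, Adipoq and Pck1 are the 3 highest on array 3, at 2.59, 0.83 and 0.70, and lie near 0 on arrays 1 and 4.

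Cav1 and Fabp4 are also genes of the endothelium. Of 23 listed endothelial markers 11 were measured, 6 with a mean above 0 and 5 below, with a median of 0.00068. The list medians were 0.11, 0.13, 0.017 and 0.095 on arrays 1 to 4. Pecam1, an adhesion protein of endothelial junctions with 4 clones, stood at 0.27, 0.11, 0.017 and 0.21, with a mean of 0.15 ± 0.13 (SD, n = 3 pairs), and its clones had means of 0.13, 0.43, 0.087 and -0.056.

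Cdh5, the cadherin of endothelial junctions, had a mean of 0.57 ± 1.21 (SD, n = 3 pairs) from 2 unlike clones. The first stood at 0.27, 0.41, 0.20 and -0.15 and the second at 2.68, 4.44, -1.82 and -0.57. Sox17, a transcription factor of arterial endothelium, had a mean of 0.25 ± 0.17 and Sparcl1, a secreted matrix protein of vessels, 0.38 ± 0.17, and both were above 0 on all 4 arrays as read. The 5 markers of the list with a mean below 0 were Cldn5 at -0.40, Emcn at -0.18, Nos3 at -0.072, Tie1 at -0.038 and Tek at -0.0064. They were named after their values were seen. With arrays 1 and 2 turned, the means of Pecam1, Cdh5, Sox17 and Sparcl1 were -0.069, -1.23, 0.12 and 0.0073. The part of endothelial cell number in the Cav1 and Fabp4 values was not tested. With arrays 1 and 2 turned, 5 of the 11 endothelial, 10 of the 20 adipocyte, 6 of the 11 capillary, 2 of the 5 fatty acid-binding and 6 of the 15 adiponectin pathway genes lay above 0. The share over all genes is not given for the turned direction, so nothing is read from these counts.

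Genes whose 4 array values lay closest to those of each member were ranked by the root mean square difference over the 4 arrays, which share dyes and mice. Nearest to Cav1 were Ap1s2, a clathrin adaptor subunit, at 0.059, Endod1 at 0.12, Sh3bgrl at 0.13, Nid2, a basement membrane protein, at 0.14, and Lyz2, a lysozyme of macrophages, at 0.15. Lyz2 stood at 0.13, 0.42, 0.87 and 0.28 on arrays 1 to 4. Nearest to Fabp4 were Wasf2, an actin regulator, at 0.081, Lrrc8a, a subunit of the volume-regulated anion channel, at 0.087, Appbp2 at 0.11, Snd1 at 0.12 and 1700025G04Rik at 0.14.

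Nearest to Adipoq of all genes was Pck1, at a root mean square difference of 0.087 log2 units. After it came Klf13, a transcription factor, at 0.089, Nusap1, a spindle protein, at 0.10, Mapre1, a microtubule end-binding protein, at 0.11, and Hspa1b, an inducible heat shock protein, at 0.11. All 5 were highest on array 3, between 0.67 and 0.99. Within a difference of 0.2 lay 17 genes for Cav1, 58 for Fabp4 and 19 for Adipoq, so each pattern was shared by several genes.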

How the data were processed

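The values deposited by the authors are log ratios of the 2 dyes for each printed feature, read here as log2. How they were corrected, normalized and directed, and to which base, is not given in the sources used here. Per the labels' protocols, 50 µg of total RNA per dye was reverse transcribed with oligo(dT). Of 17664 features 17207 had values on all 4 arrays. A further 736 features at 23 print positions without a gene name in any of 32 blocks were left out, taken as control spots, which left 16471 clones. Of all features 12563 had 1 gene symbol, 412 several and 4689 none in the platform annotation (12555 gene IDs matched RefSeq, GRCm38.p6). Clones of 1 symbol were averaged to 8106 genes. Arrays 2 and 4 (same mice, dyes exchanged) were averaged, and the 3 pairs were tested against 0 with limma (version 3.58.1, R 4.3.3), using moderated statistics and Benjamini-Hochberg adjustment at 0.05. The fit was tested on simulated data. The array number limits precision. Members and lists were chosen with earlier results of these data known. By rule, up to 4 genes per list with 1 sign on all arrays, set relatives, and the 5 nearest patterns per member were eligible to be named. Alternatives covered direction, pair 2's arrays, pairs left out, scaling, centring, clone averaging and dye.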

Additional observations from a re-analysis of the deposited data

How the results depend on the processing

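The means of Cav1, Fabp4 and Adipoq kept their sign under every alternative tried. They moved by less than their SD between pairs, except that the Fabp4 mean was 0.061 with arrays 1 and 2 turned. With 3 pairs, a mean cannot move by that SD when 1 is left out, so those settings could not show such a move. Leaving out a pair gave means from 0.27 to 0.66 for Cav1, from 0.35 to 0.41 for Fabp4 and from 0.034 (without pair 3) to 0.43 for Adipoq. Limma called 0 genes and 0 clones at an adjusted p of 0.05 in every fit run. At an unadjusted p under 0.05, 441 genes became 1683 with arrays 1 and 2 turned, 1188 with dye as a covariate, and between 145 (without pair 2) and 851 (without pair 3) with a pair left out, and 858 clones became 3096 with arrays 1 and 2 turned; the cause was not tested. Over 42 of the other genes named in the text, checks added after seeing the data left 401 of 420 values within 1 SD. The 19 that moved did so with arrays 1 and 2 turned. The settings with a pair left out could not move a value beyond 1 SD, and a value within it can change sign. Cavin1 went from 0.28 to -0.37 without pair 1, and Cav3 from -0.097 to 0.095 without pair 3. Of 110 counts of listed genes above 0, 96 stayed within 1.5 times the reported count. Of the adipocyte markers, 13 lay above 0 with pair 2 from array 2 alone, against 7 as reported. Of the 5 fatty acid-binding genes, 2 did without pair 1, against 1 as reported.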

Other observations

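Markers of other cell types that ventricle tissue holds had these values. Of 10 measured fibroblast markers 9 had a mean log2 ratio above 0, with a median of 0.48, and 4 of the 10 with arrays 1 and 2 turned. Of the 4 measured smooth muscle and pericyte markers all lay above 0, with a median of 0.17, and 1 with arrays 1 and 2 turned. Myh11, the smooth muscle myosin, stood at 0.0048, 0.14, 0.50 and 0.67 on arrays 1 to 4, low on array 1 like the Cav1 clones. The rest of that list did not share its height on array 3. Cnn1, Pdgfrb and Notch3, named after their values were seen, stood at 0.021, 0.36 and 0.39 on array 1. On array 3 they stood at -0.013, -0.10 and -0.65. Of 4 measured macrophage markers 2 lay above 0, with a median of -0.12, and 3 of the 4 with a median of 0.19 when arrays 1 and 2 are turned. Lyz2 stood at 0.45 ± 0.38 (SD, n = 3 pairs), and at 0.22 with those arrays turned. The 3 measured cardiomyocyte markers had a median of -0.055, and Atp2a2, the calcium pump of the sarcoplasmic reticulum, stood at -0.15 ± 0.21. With arrays 1 and 2 turned all 3 lay above 0, with a median of 0.13, and Atp2a2 stood at 0.13. No gene of these lists passed the adjusted threshold. As read, 49.8% of all genes had a mean above 0. That share is not given for the turned direction, so nothing is read from the turned counts.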
